A study of Mus musculus with 12 samples.

Results

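The glucose breakdown pathway was followed through 34 genes of glucose uptake, glycolysis, lactate handling and pyruvate entry into mitochondria. They were chosen by name. All 34 are in the count table and all have at least 10 counts over the 12 libraries, out of 26485 gene rows. Of these, 28 passed the count minimum for testing (at least 10 counts in at least 3 libraries), among 7465 genes tested. The study read RNA of CD4+ T cells, sorted on CD4 and CD45 from C57BL/6 mice that had been immunised with an alum adjuvant. Per the labels' protocols, the mice then received, by mouth once a day for 7 days, vehicle or 25 mg/kg of 4EGI-1, a compound that blocks the pairing of the cap-binding factor eIF4E with eIF4G. The 4 groups of 3 libraries are 4E input, OA input, 4E heavy and OA heavy. Input is total mRNA, and heavy is RNA from the dense end of a sucrose gradient, where transcripts carrying many ribosomes sediment. The labels do not spell out 4E and OA. A table deposited by the authors sets an arm called OAE against OA, and 4E was taken to be the mice given 4EGI-1 and OA those given vehicle. No label ties a replicate to its own animal. The p-values therefore cover the spread among these samples alone, and that spread may be technical.

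Glycolysis turns glucose into pyruvate in the cytosol. Pyruvate is then reduced to lactate and exported, or is carried into mitochondria and fed into the citrate cycle by the pyruvate dehydrogenase complex. Activated T cells are known for raising glucose uptake and lactate output as they divide, and Myc, hypoxia-inducible factor and mTOR signalling are known to raise many of these genes. Members are therefore taken in the order of the pathway: transporters, hexokinases, phosphofructokinases and their regulators, the enzymes from aldolase to pyruvate kinase, lactate genes, and mitochondrial entry.

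Gene reads per library numbered 691449 to 1906657. Small noncoding RNAs took 71% to 78.3% of these reads in 5 of the 6 input libraries and 33.6% in OA input replicate 1, against 3.17% to 17.0% in the heavy libraries. Levels are therefore given as counts-per-million (CPM) after TMM scaling, which sets the typical gene equal between libraries. A count of 0 allows up to 3 counts, or 6.52 to 6.82 CPM in 4E input, 1.19 to 5.12 in OA input, 1.87 to 2.69 in 4E heavy and 0.781 to 1.93 in OA heavy, covering counting error only. Row names are in human style, 33 of the 34 names match a mouse symbol when case is ignored (GPI is Gpi1 in mouse), and rows with no mouse symbol also hold reads. Levels are compared between libraries for each gene and never between genes. In bulk samples, fewer cells of a type and less RNA per cell cannot be told apart. T cell markers had reads in all 12 libraries, with a summed level of 654 to 915 CPM in 4E input, 747 to 1176 in OA input, 818 to 1038 in 4E heavy and 737 to 1182 in OA heavy over the 7 of 8 listed genes in the table, most of it from LCK and PTPRC. CD3D was at 0 in all libraries, and CD4 itself, the gene of the sort, had 100 counts in all, with 0 in the 3 libraries of 4E input, in OA input replicate 2 and in 4E heavy replicate 2.

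The summed level of the 34 genes lay between 1522 and 1823 CPM in all libraries. It was 1671, 1621 and 1788 CPM in 4E input replicates 1, 2 and 3, against 1630.3, 1536 and 1522 CPM in OA input. In heavy polysomes it was 1738, 1590.3 and 1660.4 CPM in 4E, against 1823, 1713 and 1654 CPM in OA. PKM alone made up 361 to 592 CPM of these sums, so they say little about members with few reads. The arms overlapped in both fractions.

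**Figure D1:**
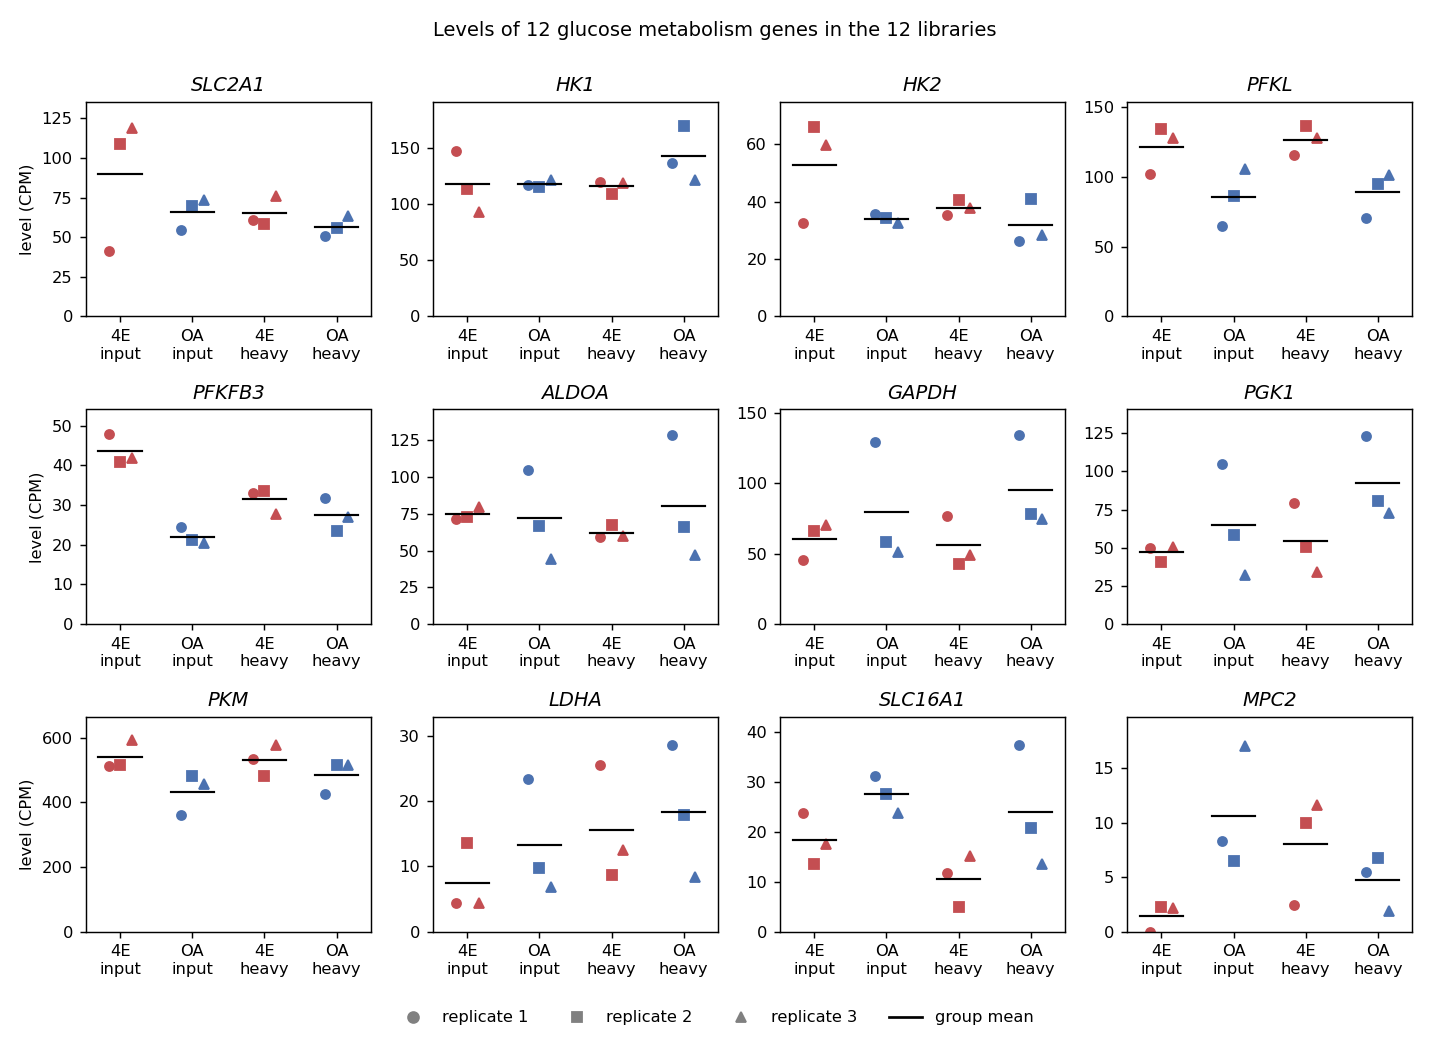
Level (CPM after TMM scaling, each vertical axis from 0) of 12 members in every library of the 4 groups, 4E in red and OA in blue. Marker shapes give the replicate number and bars the group mean (n = 3). PFKFB3 separates the arms in input (40.9 to 47.8 CPM in 4E, 20.5 to 24.6 in OA), and OA replicate 1 stands above the other OA libraries for ALDOA, GAPDH, PGK1 and LDHA.

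Total mRNA was compared between the arms to ask whether the level of these transcripts differed. In edgeR's quasi-likelihood fit, 0 of 28 tested members differed at a Benjamini-Hochberg adjusted p under 0.05, where 0% of all 7465 tested genes did. DESeq2 and limma-voom also called 0 members. At an unadjusted p under 0.05 there were 3 members of 28, against 10.5% of all tested genes. The log2 change (4E minus OA) was above 0 for 17 members and below 0 for 11, with a median of 0.038, beside 47% above 0 and a median of -0.049 over all tested genes. Without 4E input replicate 1 the members' median was -0.041. In 2 members every 4E library lay above every OA library (6.23% of tested genes) and in 2 every 4E library lay below (7.56%).

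Glucose enters T cells mainly through the transporter encoded by SLC2A1. Its level was 41.3, 109 and 119 CPM in 4E input, against 54.7, 69.98 and 73.3 CPM in OA input. Replicate 1 was the lowest of the 4E libraries and the other 4E libraries lay above all OA libraries. SLC2A3, a second high-affinity transporter, had 6, 0 and 4 counts in 4E input (13.04, 0 and 8.83 CPM) and 12, 0 and 0 counts in OA input (4.75, 0 and 0 CPM), too few to tell the arms apart. SLC2A14, a near-identical copy of SLC2A3 in human with no mouse symbol, held 118 counts over all libraries beside 76 for SLC2A3, so reads may have been split between the rows.

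Hexokinases trap glucose in the cell by phosphorylation. HK2, the inducible form, stood at 32.6, 65.9 and 59.6 CPM in 4E input and at 35.7, 34.2 and 32.4 CPM in OA input. The OA libraries were nearly equal, and 4E replicate 1 lay inside their range while replicates 2 and 3 lay above it (log2 change 0.62, SE 0.33, adjusted p = 0.527). HK1, the broadly expressed form, measured 148, 114 and 92.7 CPM in 4E input and 117, 116 and 121 CPM in OA input, and its 95% interval of -0.48 to 0.48 on the log2 scale leaves out a change of 2-fold. HK3, known from myeloid cells, averaged 8.75 ± 7.86 CPM in 4E input and 8.92 ± 2.77 CPM in OA input (SD, n = 3 each). GPI, which turns the product of hexokinase into the substrate of phosphofructokinase, stood at 126, 86.4 and 68.4 CPM in 4E input and 140.2, 127 and 128 CPM in OA input. Every 4E library lay below every OA library, the highest 4E library only just (log2 change -0.50, SE 0.26, adjusted p = 0.524).

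Phosphofructokinase commits sugar to glycolysis and has 3 subunit genes. PFKL, the liver-type subunit, measured 102, 134 and 128 CPM in 4E input, against 64.6, 86.3 and 106 CPM in OA input. Only 4E replicate 1 fell within the OA range (log2 change 0.53, SE 0.25, unadjusted p = 0.0466, adjusted p = 0.471), and without composition scaling the change was -0.24. PFKP, the platelet type, measured 49.98, 34.1 and 33.1 CPM in 4E input and 35.7, 40.7 and 35.8 CPM in OA input, and its log2 change had a 95% interval of -0.55 to 0.69. PFKM, the muscle type, averaged 26.7 ± 12.8 CPM in 4E input and 36.98 ± 10.3 CPM in OA input (SD, n = 3 each).

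PFKFB3 had the lowest p of the members in input. This enzyme, which makes the allosteric activator of phosphofructokinase, stood at 47.8, 40.9 and 41.9 CPM in 4E input replicates 1, 2 and 3, against 24.6, 21.2 and 20.5 CPM in OA input. The 3 libraries of each arm lay close together and the arms did not overlap (log2 change 0.96, SE 0.32, unadjusted p = 0.00785, adjusted p = 0.356). These levels rest on 22, 18 and 19 counts in 4E and 62, 13 and 12 counts in OA. At such counts, counting error is large, so the closeness within arms is no measure of precision. Its relatives PFKFB2 and PFKFB4, which carry out the same reaction and its reverse, averaged 38.6 ± 9.10 and 10.4 ± 10.4 CPM in 4E input and 35.2 ± 14.2 and 13.1 ± 7.07 CPM in OA input (SD, n = 3 each), and overlapped between the arms. Without composition scaling the PFKFB3 change was 0.043, where the median of all tested genes was -0.93.

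Promoter sequences are shown for PFKFB3 and SLC16A1, which had the lowest p of the members in input and in heavy, and for PGK1, whose hypoxia response sites are well known. They are the 250 bases before each annotated start, from RefSeq on GRCm38.p6, 5′ to 3′ on the strand of the gene. Capitals mark ACGTG on either strand, the core bound by hypoxia-inducible factor, which is also part of the Myc site CACGTG. The first and second Pfkfb3 windows lie at chr2:11553930-11554179, minus strand, and chr2:11502091-11502340, minus strand. The Slc16a1 window lies at chr3:104638414-104638663, plus strand, and the Pgk1 window at chrX:106186850-106187099, plus strand.
Pfkfb3 window 1: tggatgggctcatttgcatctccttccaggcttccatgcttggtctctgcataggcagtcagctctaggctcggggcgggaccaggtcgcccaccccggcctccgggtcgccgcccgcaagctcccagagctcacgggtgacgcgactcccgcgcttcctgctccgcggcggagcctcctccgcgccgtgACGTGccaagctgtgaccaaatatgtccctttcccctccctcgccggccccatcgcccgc
Pfkfb3 window 2: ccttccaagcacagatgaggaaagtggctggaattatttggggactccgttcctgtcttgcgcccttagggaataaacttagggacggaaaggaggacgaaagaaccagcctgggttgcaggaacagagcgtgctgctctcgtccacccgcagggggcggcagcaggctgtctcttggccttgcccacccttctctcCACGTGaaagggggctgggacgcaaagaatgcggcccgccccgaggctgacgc
Slc16a1: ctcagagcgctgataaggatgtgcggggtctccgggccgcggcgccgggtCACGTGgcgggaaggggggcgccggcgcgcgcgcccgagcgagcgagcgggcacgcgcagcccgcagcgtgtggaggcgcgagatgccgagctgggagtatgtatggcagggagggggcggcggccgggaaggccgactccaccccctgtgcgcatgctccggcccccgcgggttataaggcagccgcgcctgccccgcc
Pgk1: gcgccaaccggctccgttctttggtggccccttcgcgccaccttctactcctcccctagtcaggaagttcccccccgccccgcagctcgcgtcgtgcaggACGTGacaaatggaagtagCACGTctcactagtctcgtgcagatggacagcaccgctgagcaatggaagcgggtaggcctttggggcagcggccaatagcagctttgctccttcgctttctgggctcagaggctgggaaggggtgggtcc
A run of 6 capitals is the Myc site, which reads the same on both strands and so counts as 2 matches of the core. Pgk1 held the core in each orientation. Windows were found for 33 of the 34 members, by mouse symbol, and 16 of these 33 had the core in at least 1 window. No share by gene over all genes is given beside that count, and a gene with more windows has more room for a match. By window, 40% of 50 held ACGTG on either strand and 12% held CACGTG, beside 16.6% and 6.02% of all 32851 windows in the table and 17.8% and 6.63% of the 21263 windows of protein-coding genes. A match is a description of letters and not a bound site. Gapdh and Pfkl held none in this window, Ldha had 5 matches of the core in 1 of its 2 windows, and both Pfkfb3 windows held it.

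From aldolase to enolase, the OA libraries were unequal and no tested member of these steps separated the arms in input. ALDOA, the main aldolase, measured 71.7, 72.7 and 79.5 CPM in 4E input and 105, 66.7 and 44.4 CPM in OA input. GAPDH, which carries out the first energy-yielding oxidation, measured 45.6, 65.9 and 70.6 CPM in 4E input and 129, 58.6 and 51.2 CPM in OA input. OA replicate 1 was the highest of all 6 input libraries for both genes. Among the other 5, the arms overlapped for GAPDH, while for ALDOA every 4E library lay above the remaining OA libraries. ALDOC, PGK1, ENO1, ENO3 and TPI1 also overlapped, with log2 changes from -0.82 for ALDOC to 0.63 for ENO3. The final enzyme, pyruvate kinase PKM, stood at 513, 516 and 592 CPM in 4E input, against 361, 482 and 455 CPM in OA input. Each 4E library was above each OA library by a small margin (log2 change 0.32, SE 0.20, adjusted p = 0.581).

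Lactate genes were measured with few reads in input. LDHA, the lactate dehydrogenase subunit that favours lactate formation, had 2, 6 and 2 counts in 4E input (4.35, 13.6 and 4.42 CPM), against 59, 6 and 4 counts in OA input (23.4, 9.76 and 6.82 CPM). LDHB, the subunit that favours the return to pyruvate, had 2, 6 and 7 counts in 4E input (4.35, 13.6 and 15.5 CPM), against 26, 6 and 2 counts in OA input (10.3, 9.76 and 3.41 CPM). Neither separated the arms, and the intervals of their log2 changes ran from -2.51 to 0.54 and from -0.92 to 1.77. SLC16A1, a lactate and pyruvate carrier, stood at 23.9, 13.6 and 17.7 CPM in 4E input and 31.3, 27.7 and 23.9 CPM in OA input, touching only at 4E replicate 1 and OA replicate 3. The export carrier SLC16A3 had 0 counts in all 6 input libraries.

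Pyruvate reaches mitochondria through a carrier built from MPC1 and MPC2. MPC2 had 0, 1 and 1 counts in 4E input (0, 2.27 and 2.21 CPM), against 21, 4 and 10 counts in OA input (8.32, 6.51 and 17.1 CPM). The arms did not overlap (log2 change -2.73, SE 1.08, unadjusted p = 0.0203, adjusted p = 0.399). All 4E values and OA replicate 2 lie below the level that a count of 0 allows in the 4E libraries, so a difference of this kind was near the limit of the depth. Of the dehydrogenase complex that takes up pyruvate, the subunits PDHA1 and PDHB averaged 111 ± 45.1 and 37.5 ± 16.7 CPM in 4E input and 89.3 ± 17.2 and 32.7 ± 5.95 CPM in OA input (SD, n = 3 each). DLAT, its acetyl-transferring core, had 0, 0 and 1 counts in 4E input and 17, 1 and 2 counts in OA input. PDK1, a kinase that switches the complex off, measured 63.02, 59.1 and 33.1 CPM in 4E input and 55.1, 32.5 and 54.6 CPM in OA input, and the arms overlapped. PDHA2, a copy of PDHA1 known from testis, held 240 counts over all libraries beside 1602 for PDHA1, and the authors' counting may have split their shared reads.

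**Figure D2:**
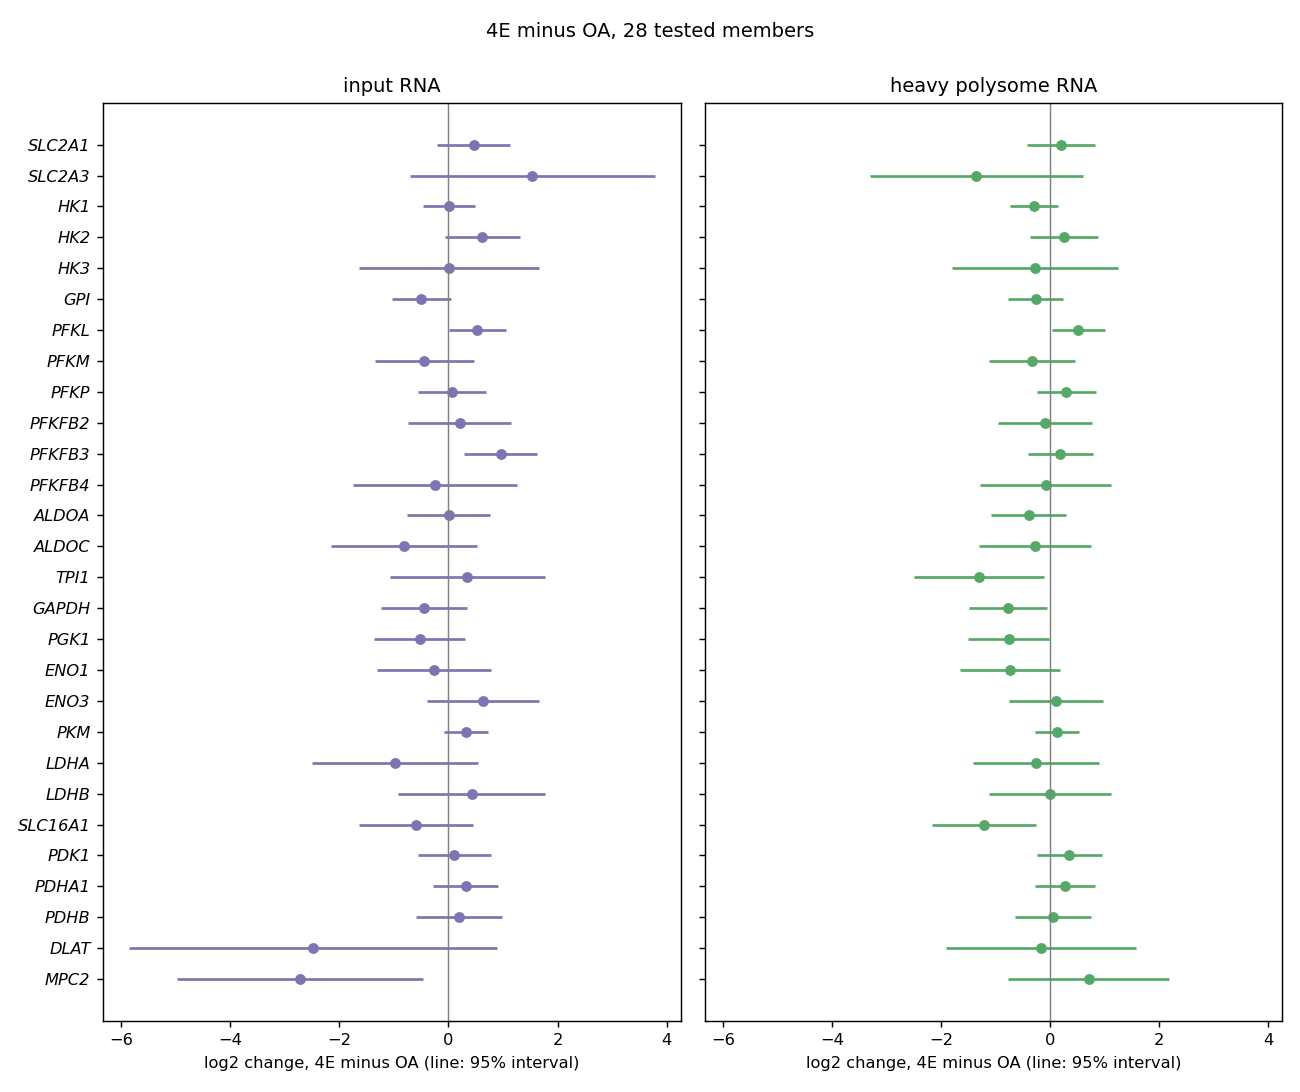
Log2 change, 4E minus OA, of the 28 tested members in input RNA (left) and heavy polysome RNA (right), in pathway order from top to bottom, with points for the edgeR estimate and lines for its 95% interval. Most lines cross 0. Those that do not are PFKFB3, MPC2 and PFKL in input and SLC16A1, TPI1, GAPDH, PFKL and PGK1 in heavy, and no member passed after adjustment over all genes.

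Transcripts loaded with many ribosomes were the subject of the matching comparison in heavy RNA. Here too edgeR called 0 of 28 members, beside 0% of all tested genes, and DESeq2 and limma-voom called 0. An unadjusted p under 0.05 was reached by 5 of 28 members, against 8.21% of tested genes. Of the members 11 had a log2 change above 0 and 17 below, with a median of -0.13, beside 49.8% above 0 and a median of -0.0023 over all tested genes. The members' median was 0.011 without 4E heavy replicate 1 and -0.0089 without OA heavy replicate 1. Every 4E library lay above every OA library for PFKL and PDK1 (9% of tested genes), and below for TPI1 and HK1 (8.12%).

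Of the 5 members under an unadjusted 0.05, TPI1, GAPDH and PGK1 act directly after aldolase. TPI1, which interconverts the products of aldolase, had 7, 7 and 4 counts in 4E heavy (4.36, 4.35 and 3.58 CPM), against 40, 19 and 15 counts in OA heavy (10.4, 10.7 and 9.66 CPM). Libraries within each arm lay close together and the arms were well apart (log2 change -1.30, SE 0.57, unadjusted p = 0.0347, adjusted p = 0.574), on 18 counts in all in 4E. A row named for the human pseudogene TPI1P2 held 86 counts beside 125 for TPI1, so shared reads may have been split.

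GAPDH stood at 77.2, 42.9 and 49.3 CPM in 4E heavy, against 134, 77.95 and 74.7 CPM in OA heavy. 4E replicate 1 reached into the OA range, whose top was OA replicate 1 (log2 change -0.77, SE 0.34, unadjusted p = 0.0369, adjusted p = 0.574). PGK1, which makes the first ATP of the pathway, stood at 79.1, 50.4 and 34.03 CPM in 4E heavy and 123, 80.8 and 72.8 CPM in OA heavy, again with 4E replicate 1 inside the OA range (log2 change -0.76, SE 0.35, unadjusted p = 0.0456, adjusted p = 0.594). Enolase ENO1 measured 46.7, 37.9 and 20.6 CPM in 4E heavy and 96.6, 37.6 and 41.2 CPM in OA heavy, and the arms overlapped (log2 change -0.74, SE 0.44, adjusted p = 0.657). Without OA replicate 1 in both fractions, the changes of GAPDH, PGK1 and ENO1 in heavy were -0.46, -0.51 and -0.17.

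SLC16A1, whose promoter window is printed with those of PFKFB3, had the lowest p of the members in heavy. It stood at 11.8, 4.97 and 15.2 CPM in 4E heavy, against 37.5, 20.7 and 13.5 CPM in OA heavy. OA replicate 1 was far above the rest and OA replicate 3 lay within the 4E range (log2 change -1.22, SE 0.45, unadjusted p = 0.0149, adjusted p = 0.569). Without OA replicate 1 in both fractions the change was -0.74 (adjusted p = 0.968). LDHA measured 25.5, 8.70 and 12.5 CPM in 4E heavy and 28.6, 17.9 and 8.38 CPM in OA heavy, and LDHB 11.8, 6.84 and 8.06 CPM in 4E heavy and 9.89, 8.41 and 8.38 CPM in OA heavy. For both lactate dehydrogenase genes the arms overlapped.

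PFKL had similar log2 changes in both fractions. In heavy it stood at 116, 136 and 128 CPM in 4E, against 70.8, 94.8 and 101 CPM in OA, without overlap (log2 change 0.52, SE 0.23, unadjusted p = 0.0375, adjusted p = 0.576). PFKP measured 54.8, 46.01 and 60.0 CPM in 4E heavy and 43.2, 40.9 and 46.4 CPM in OA heavy, and 4E replicate 2 lay just below OA replicate 3. PFKM averaged 27.5 ± 8.88 CPM in 4E heavy and 34.6 ± 11.7 CPM in OA heavy (SD, n = 3 each). PFKFB3, the member of lowest p in input, stood at 32.99, 33.6 and 27.8 CPM in 4E heavy and 31.8, 23.6 and 27.1 CPM in OA heavy, where the arms overlapped (log2 change 0.19, 95% interval -0.40 to 0.79).

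Transporters, hexokinases and pyruvate kinase mostly overlapped between the arms in heavy. SLC2A1 measured 61.00, 58.4 and 76.1 CPM in 4E heavy and 50.8, 56.1 and 63.1 CPM in OA heavy. SLC2A3 had 4, 2 and 4 counts in 4E heavy (2.49, 1.24 and 3.58 CPM) and 24, 6 and 14 counts in OA heavy (6.25, 3.36 and 9.02 CPM). Both overlapped between the arms. HK2 measured 35.5, 40.4 and 37.6 CPM in 4E heavy and 26.3, 40.9 and 28.3 CPM in OA heavy. HK1 was at 120.1, 109 and 119 CPM in 4E heavy and 136, 169.9 and 122 CPM in OA heavy, each 4E library below each OA library by a small margin (log2 change -0.30, SE 0.21, adjusted p = 0.696). Pyruvate kinase PKM stood at 534, 481 and 577 CPM in 4E heavy and 426, 514 and 515 CPM in OA heavy, and ALDOA at 59.1, 67.1 and 60.0 CPM in 4E heavy and 128, 66.2 and 47.03 CPM in OA heavy. PKM had the narrowest interval of the 28, -0.27 to 0.53.

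At the mitochondrial step, PDK1 measured 82.8, 54.1 and 53.7 CPM in 4E heavy, against 47.1, 51.6 and 50.9 CPM in OA heavy. The arms did not overlap, with 4E replicate 1 well above the rest (log2 change 0.35, SE 0.29, adjusted p = 0.715). MPC2 had 4, 16 and 13 counts in 4E heavy (2.49, 9.95 and 11.6 CPM), against 21, 12 and 3 counts in OA heavy (5.47, 6.73 and 1.93 CPM), and the arms overlapped. DLAT was uneven within arms, with 7, 27 and 0 counts in 4E heavy and 48, 10 and 9 counts in OA heavy. PDHA1 and PDHB averaged 111 ± 10.9 and 33.6 ± 7.00 CPM in 4E heavy and 91.7 ± 12.7 and 32.4 ± 6.05 CPM in OA heavy (SD, n = 3 each).

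How large a difference could have been missed varies by member. The 95% interval of the 4E minus OA change lay wholly within 2-fold in either direction (a log2 change of -1 to 1) for 7 of 28 members in input and 13 of 28 in heavy. In both fractions these included HK1, PKM, PFKP, PDK1, PDHA1 and PDHB. For the other members a change of 2-fold or more in at least 1 direction lay inside the interval, so a p above the threshold does not show that their levels were alike.

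The interaction of arm and fraction asks whether the arms differed more, or less, on heavy polysomes than in total mRNA. Here 0 of 28 members passed in edgeR, beside 0% of all tested genes, with 0 in DESeq2 and limma-voom. An unadjusted p under 0.05 was found in 1 member of 28, against 2.13% of tested genes. That member was MPC2, with counts of 4, 16 and 13 in 4E heavy and 0, 1 and 1 in 4E input, against 21, 12 and 3 in OA heavy and 21, 4 and 10 in OA input (log2 change 3.43, SE 1.30, unadjusted p = 0.0159, adjusted p = 1). SLC2A3 (log2 value -2.88, SE 1.42) and TPI1 (-1.64, SE 0.89) had the next lowest p, with an adjusted p of 1 for each. The value was below 0 for 19 members and above 0 for 9, with a median of -0.24, beside 54.2% above and 45.8% below 0 and a median of 0.050 over all tested genes. For 5 of 28 members the interval lay within 2-fold.

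Each arm was also read for heavy against input, to ask which transcripts were more or less abundant on heavy polysomes. In 4E, edgeR called 0 of 28 members, beside 0.938% of all tested genes, all of them lower in heavy. In OA it called 0 of 28, beside 0.683% of tested genes, again all lower. The OA input and heavy libraries were also taken as paired by number. With that pair as a replicate block, 0 members were called in OA, beside 6 genes higher and 84 lower among all tested genes, where there were 0 and 51 without the block. All other values in this paragraph, intervals included, are from fits without the block. DESeq2 and limma-voom called 0 members in either arm. At an unadjusted p under 0.05 there was 1 member in 4E (5.59% of tested genes) and 0 in OA (2.18%). The median log2 change (heavy minus input) was -0.025 in 4E and 0.19 in OA, beside 0.044 and 0.0056 over all tested genes. In 4E it was above 0 for 12 members (54% of tested genes) and below 0 for 16 (46%), and in OA it was above 0 for 20 (50.7%) and below 0 for 8 (49.3%). The 95% interval lay within 2-fold for 10 of 28 members in 4E and 14 of 28 in OA, and HK1, PFKL and PKM were among them in both arms.

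Among the members of lowest p in this comparison, several were low in counts. In 4E, MPC2 (log2 change 2.35, SE 1.08, adjusted p = 0.866), DLAT (3.16, SE 1.51) and PFKP (0.45, SE 0.29) had the lowest p. MPC2 lay above input without overlap in 4E heavy (7.93% of tested genes), and PFKFB3 and ALDOA lay below (5.79%). In OA the lowest p belonged to MPC2 (-1.09, SE 0.72), TPI1 (0.81, SE 0.57) and SLC2A3 (1.29, SE 0.95). TPI1, HK1 and PFKP lay above input without overlap in OA heavy (4.19%) and 0 members lay below (3.36%). MPC2 in 4E input rests on 2 counts, and DLAT there on 1. Leaving out 1 library moved the DLAT change in 4E to 1.58 (without 4E heavy replicate 2) and to 6.44 (without 4E input replicate 3, the library with that 1 count).

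Scaling sets this comparison. Without composition scaling, the median change of all tested genes was 1.97 in 4E and 1.24 in OA, and members had medians of 1.91 and 1.40. In that setting 23 of 28 members were higher in heavy in 4E, beside 80.1% of all tested genes, and 14 of 28 in OA, beside 40.3%. The members' medians differed from those of all tested genes by less than 0.2.

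**Figure D3:**
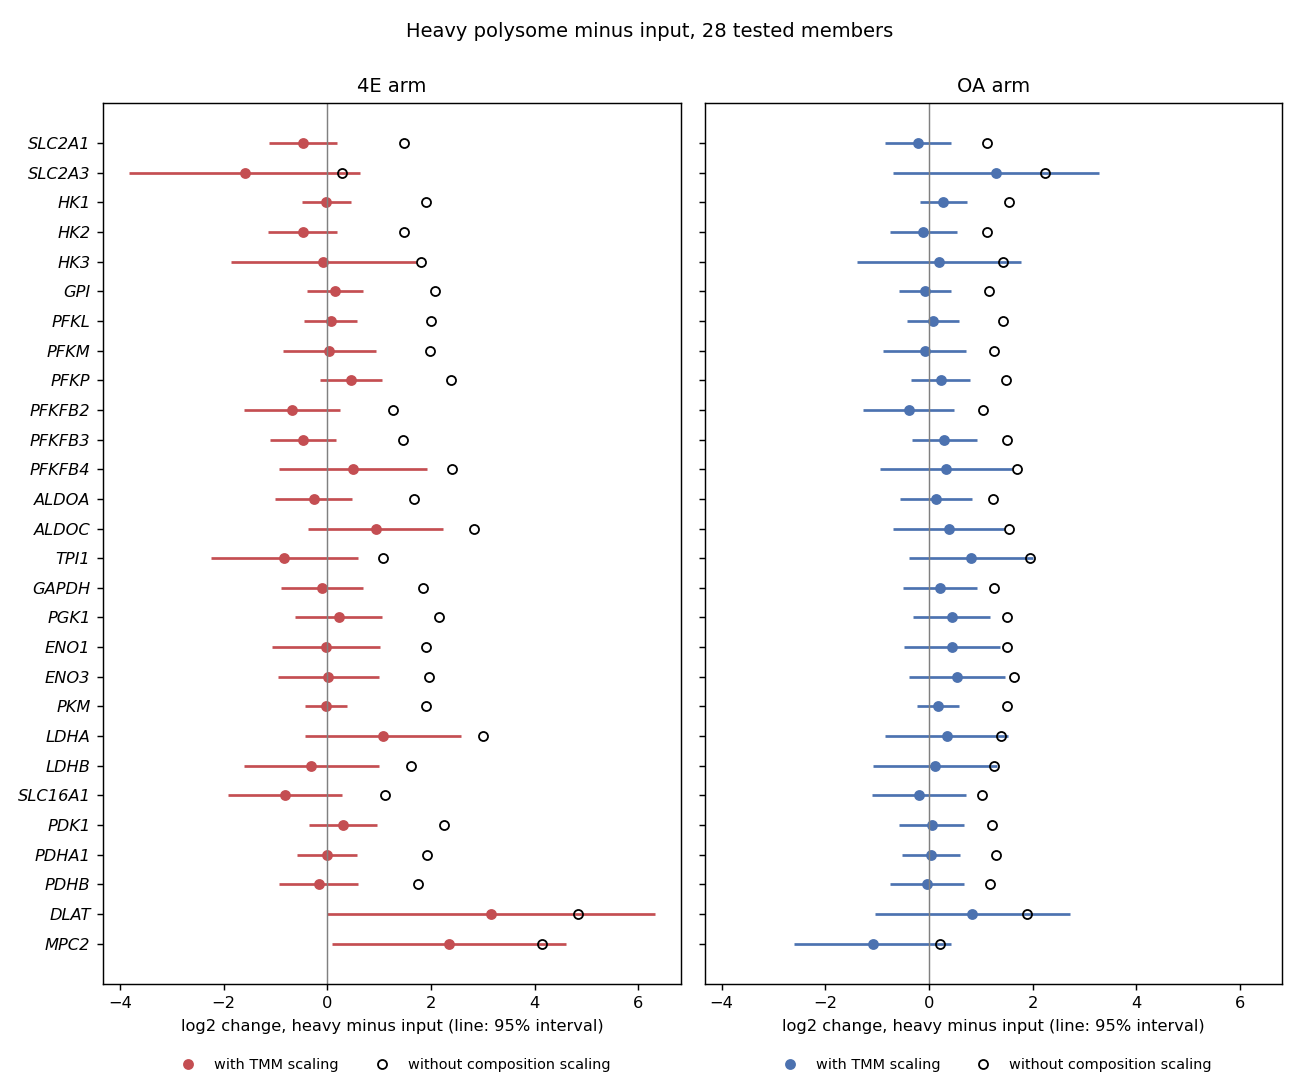
Log2 change, heavy polysome minus input, of the 28 tested members in the 4E arm (left) and the OA arm (right). Filled points are edgeR estimates with TMM scaling, with lines for the 95% interval, and open points are estimates without composition scaling. Filled points centre near 0 (medians -0.025 and 0.19) and open points lie to the right (medians 1.91 and 1.40).

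OA replicate 1 lay above or below the other OA libraries in several of these genes, as it did in many tested genes. It had the highest OA level in both input and heavy for 10 of 28 tested members: GPI, PFKFB3, ALDOA, GAPDH, PGK1, ENO1, LDHA, LDHB, SLC16A1 and DLAT. The share of all tested genes highest in both fractions was not computed, so that count is not set against a background. Over all tested genes, deviations of its input and heavy libraries from their group means correlated at 0.669. Over the 28 it was highest for 14 in input and 11 in heavy, beside 39.1% and 40.1% of all tested genes, and lowest for 7 and 11, beside 32.9% and 37.5%. Its level over the mean of OA replicates 2 and 3 was 2.49 in input and 2.45 in heavy for ENO1, 2.82 and 2.18 for LDHA, 2.35 and 1.76 for GAPDH, and 1.89 and 2.27 for ALDOA. At the other end, the ratio was 0.440 in input and 0.428 in heavy for PFKFB2, 0.505 and 0.581 for PFKFB4, and 0.673 and 0.723 for PFKL. These ratios describe 1 replicate and carry no test.

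Other measures moved with that library. OA replicate 1 had 33.6% small noncoding RNA in input, where OA replicates 2 and 3 had 74.9% and 71%. Its summed level of T cell markers was 1176 CPM in input and 1182 in heavy, where the other OA libraries had 747 and 757 in input and 776 and 737 in heavy. Of these markers, PTPRC stood at 740 CPM in input (407 and 437 in the others) and 689 in heavy (391 and 398). LCK was nearly level, at 289 CPM in input (322 and 261) and 304 in heavy (302 and 278). CD3E, CD3G, CD247 and CD4, at lower levels, were each highest in OA replicate 1 in both fractions. Stromal markers (6 of 6 in the table, none at 0 throughout) stood at 66.6 CPM in input and 59.4 in heavy, where the other OA libraries had 213 and 559.5 in input and 215 and 508 in heavy. B cell markers stood at 66.6 CPM in input and 58.6 in heavy, where the other OA libraries had 142 and 179 in input and 126 and 203 in heavy. Erythroid markers with reads stood at 65.8 CPM in input and 47.9 in heavy, where the other OA libraries had 349.9 and 359.9 in input and 548 and 235 in heavy. Myeloid markers with reads, unlike these 3 lists, were highest in OA replicate 1, at 72.5 CPM in input and 108 in heavy. In OA replicates 2 and 3 they stood at 69.98 and 39.2 CPM in input and 63.9 and 76.03 in heavy. The part of all these markers in the members' levels was not tested.

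**Figure D4:**
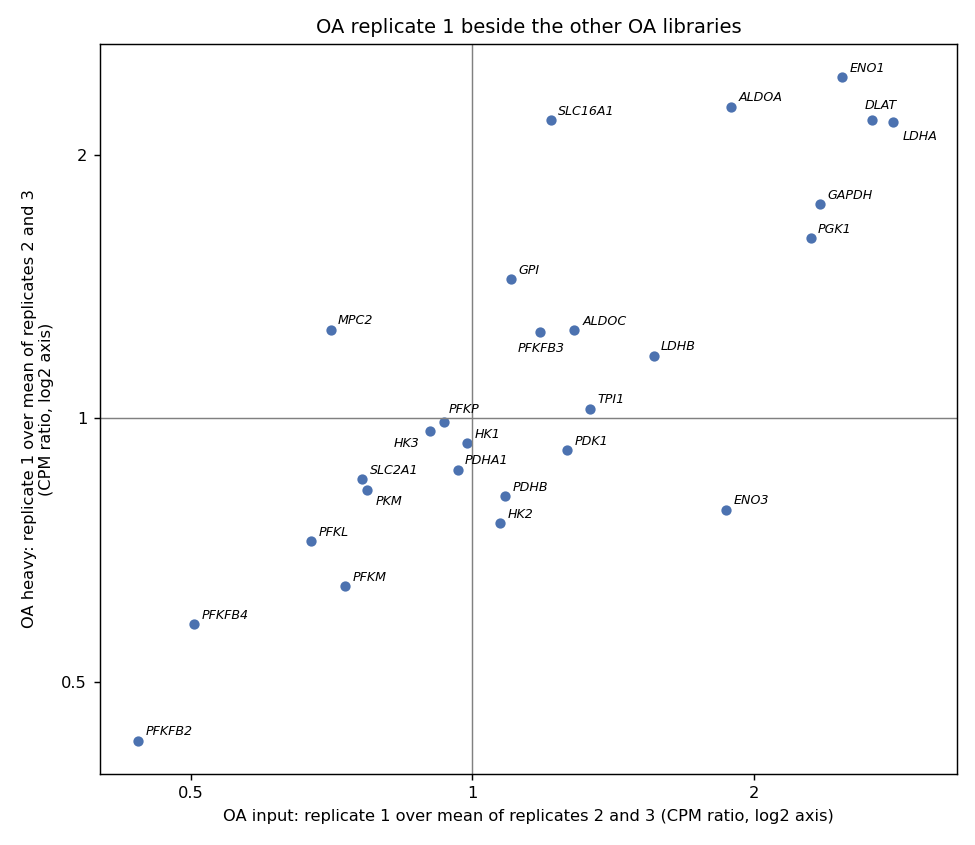
Level in OA replicate 1 over the mean of OA replicates 2 and 3, in input (horizontal) and heavy (vertical), both on log2 axes, for 27 tested members, with grey lines at a ratio of 1. SLC2A3 is left out because OA input replicates 2 and 3 were at 0. ENO1, LDHA, DLAT, ALDOA, GAPDH and PGK1 lie at the upper right, and PFKFB2 and PFKFB4 at the lower left.

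Markers of other cells were summed in each library. In edgeR 0 genes of the stromal, myeloid, erythroid and B cell lists were called between the arms. At an unadjusted p under 0.05 there were 3 stromal and 1 myeloid genes in input, and 3 stromal, 3 myeloid and 1 erythroid in heavy. The summed stromal level was 34.1 to 56.5 CPM in 4E input and 66.6 to 559.5 in OA input, and 23.03 to 39.4 in 4E heavy and 59.4 to 508 in OA heavy. The 4 erythroid markers with reads summed to 21.7 to 177 CPM in 4E input and 65.8 to 359.9 in OA input, and to 15.6 to 94.9 in 4E heavy and 47.9 to 548 in OA heavy, while HBA1 and HBA2 were at 0. Myeloid markers (8 of 9 in the table, with S100A8 at 0) summed to 30.4 to 64.03 CPM in 4E input and 39.2 to 72.5 in OA input, and to 17.4 to 41.2 in 4E heavy and 63.9 to 108 in OA heavy. B cell markers (6 of 6 in the table, none at 0 throughout) summed to 122 to 227 CPM in 4E input and 66.6 to 179 in OA input, and to 72.2 to 253 in 4E heavy and 58.6 to 203 in OA heavy. Stromal and myeloid sums in heavy, and stromal sums in input, did not overlap between the arms, and the other sums overlapped. Whether these cells contributed to the members' levels was not tested.

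Members below the count minimum were PGAM1, ENO2, SLC16A3, PDK2, PDK3 and MPC1. MPC1, the partner of MPC2, had 0 counts in all 6 4E libraries, against 19, 3 and 2 counts in OA heavy replicates 1, 2 and 3 and 11, 0 and 0 counts in OA input. Most of its 35 reads came from OA replicate 1, the library with the most gene reads in each fraction. SLC16A3 had 0, 4 and 0 counts in 4E heavy and 10, 8 and 0 counts in OA heavy. PDK3, a further kinase of pyruvate dehydrogenase, had 7, 4 and 4 counts in 4E heavy and 44, 7 and 6 counts in OA heavy. In the remaining 3, PGAM1, ENO2 and PDK2, no library held more than 17 counts. With no filter on low counts these 6 members were fitted too, and 0 passed in edgeR in either comparison between the arms. Their smallest adjusted p was 0.366 in heavy and 0.687 in input, both for MPC1, whose unadjusted p in heavy was 0.00771.

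Neighbouring pathways, from lists of other genes of the same metabolism, gave 0 called genes in either comparison between arms in edgeR. At an unadjusted p under 0.05 there were 2 of their 50 tested genes in input (PKLR and EPAS1), against 10.5% of all tested genes, and 3 of 50 in heavy (PKLR, MDH2 and HIF1A), against 8.21%. Of 15 tested other glycolysis and pyruvate genes, 10 had a log2 change below 0 in input (median -0.17) and 11 in heavy (median -0.21). The liver and red cell pyruvate kinase PKLR had the lowest p of that list (input -1.61, SE 0.52, adjusted p = 0.353, and heavy -1.16, SE 0.44, adjusted p = 0.569), followed in heavy by GPD2, a mitochondrial glycerol phosphate dehydrogenase (0.89, SE 0.43, adjusted p = 0.607). Of 7 pentose phosphate genes, 6 were below 0 in each fraction (medians -0.66 and -0.21), and of 16 citrate cycle genes, 13 in each (medians -0.22 and -0.22). MDH2, the mitochondrial malate dehydrogenase, had the lowest p of the citrate cycle list in heavy (-1.15, SE 0.48, adjusted p = 0.569), and DLST, a subunit of oxoglutarate dehydrogenase, in input (-0.73, SE 0.35, adjusted p = 0.476).

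Of 12 tested regulators of glycolysis genes, 6 were above and 6 below 0 in input (median -0.012), and 7 above and 5 below in heavy (median 0.081). EPAS1, a hypoxia-inducible factor subunit, had the lowest p of this list in input (1.33, SE 0.47, adjusted p = 0.37), and HIF1A, another such subunit, the lowest in heavy (-0.64, SE 0.27, adjusted p = 0.569). Beside these, 53% of all tested genes had a change below 0 in input and 50.2% in heavy.

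The authors' deposited table gives their own comparison of an arm named OAE with OA. It places 5 of the 34 members in a class of changed genes, beside 12.4% of all genes in that table. In the authors' deposited table TPI1 (log2 fold change -1.26), SLC16A1 (-1.17), ENO2 (-1.57) and MPC1 (-2.87) are classed as changed in translation alone, and MPC2 (-2.22) in transcription alone. In the authors' deposited table the lowest adjusted p of any member is 0.201, for MPC1 in translation, and that of PFKFB3 in transcription is 0.441 with a log2 fold change of 0.93.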

How the data were processed

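RNA from 12 libraries was sequenced after poly(A) selection and a stranded preparation, per the labels' protocols. The values are counts per gene symbol, deposited by the authors in a table whose name says normalised. They are whole numbers with unlike totals and were treated as raw counts. Per the submitters' processing notes, Bowtie and mm9 were used (no role stated); no counting tool is given in these sources. Reads in no gene or ambiguous (16.4% to 31.4% per library) and an unnamed totals row were left out, and 0 columns belonged to other samples. A second file holds the authors' deposited log2 fold changes and p-values for OAE against OA, which entered no test.

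Genes reaching 10 counts in 3 or more libraries were fitted with edgeR 4.0.16 (R 4.3.3, quasi-likelihood, TMM factors of 0.409 to 2.05, 4 group means, all 12 libraries), with Benjamini-Hochberg adjustment over 7465 genes and a threshold of 0.05. Standard errors are the log2 change over the root of F, and 95% intervals use the fit's degrees of freedom. The fit was tested on simulated counts. DESeq2 1.42.0, limma-voom 3.58.1, other scalings, count filters, left-out libraries and replicate blocks were alternatives. Members and lists were chosen with earlier results of these data known. Library values are printed for a set list of pathway-defining members and the 3 members of lowest p in each comparison.

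Replicate numbers are shared by the groups, but the labels do not say that they mark a shared animal or day. Deviations from group means of same-numbered input and heavy libraries correlated at 0.669, 0.138 and 0.312 in OA, whose numbers were taken to pair them, and at 0.100, 0.016 and 0.048 in 4E. Between the arms not every pair passed 0.1, and the highest, replicate 1 in heavy, was 0.279, above the OA value of 0.138 for replicate 2. Spearman correlations of replicates within groups were 0.84 to 0.943. Coordinates of promoters are of GRCm38.p6 and were not joined to any position in the files.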

Additional observations from a re-analysis of the deposited data

How the results depend on the processing

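The count of members called between the arms stayed at 0 in input, in heavy and in the interaction under all alternatives run, including every left-out library (range 0 to 0). For heavy against input it was 23 in 4E and 14 in OA without composition scaling and 0 under the other alternatives, with 0 to 0 over left-out libraries. That scaling also moved the members' median log2 change to -0.84 (4E minus OA in input), -0.31 (in heavy), 0.50 (interaction), 1.91 (heavy minus input in 4E) and 1.40 (in OA), and turned PFKL in input to -0.24 and MPC2 in OA heavy against input to 0.21. The cause of other moves was not tested. In heavy, the median of -0.13 became -0.29 with no filter on low counts, 0.024 with a filter of 50 counts and -0.023 without OA replicate 1 in both fractions. Over left-out libraries it ran from -0.15 to 0.011, with -0.0089 without OA heavy replicate 1, 0.011 without 4E heavy replicate 1, -0.046 without OA heavy replicate 3 and -0.066 without 4E heavy replicate 3. The other medians ran from -0.041 to 0.13 in input, from -0.25 to -0.11 for the interaction, from -0.067 to 0.029 for heavy minus input in 4E and from 0.092 to 0.19 in OA. Single values were followed for the 3 members of lowest p in each comparison and those under an unadjusted 0.05. Of 354 alternative values for these, 348 kept their direction and side of the threshold, 4 passed only without composition scaling and 2 turned. None of these members passed in the main fit, so a kept side means an adjusted p still above the threshold. Being picked for a low p in the same data also favours a kept direction. Most of the 28 tested members were less steady. Over all alternatives, that without composition scaling included, 9 kept 1 direction in input, 18 in heavy and 9 in the interaction. For heavy minus input, 7 did in 4E and 10 in OA. Fitting only the groups compared equals the full fit for the interaction and was not run there.

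With the replicate number or the arm-by-number pair as a replicate block, 0 members were called in each comparison that block could be fitted to, and the medians with the number as block were 0.084 in input and -0.13 in heavy. Over all tested genes, the number as block gave 50 higher and 21 lower in input and 14 higher and 13 lower in heavy, where there were 0 without it. The arm-by-number pair gave 1 higher and 9 lower in the interaction (0 without it), and 13 higher and 96 lower for heavy against input in 4E (0 and 70 without it). By the labels the samples share only a number in both arms, and OA was treated as paired from the correlations alone. Low counts limit the precision of several members, with 10 or fewer counts over 4E input for TPI1, MPC2, DLAT, SLC2A3 and LDHA.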
